A study of Homo sapiens with 9 samples.

Results

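Before hormone, 2479 LSD1 peaks in T47D-MTVL cells overlapped an HP1γ peak by at least 1 bp. They were chosen by that overlap out of 34990 LSD1 peaks at 0 min, a share of 7.08%, and they are called LSD1-HP1γ sites here. T47D-MTVL derives from the luminal breast cancer line T47D and holds a stably integrated reporter with the promoter of the mouse mammary tumour virus. The cells were kept in medium with hormone-stripped serum and then without serum, and were left unstimulated (0 min) or given R5020, a synthetic progestin, at 10 nM. ChIP-seq libraries were made with antibodies to LSD1, HP1γ and BPTF at 0 and 30 min and to histone H2A at 0, 30 and 60 min, all from this line. Each antibody and time has 1 library, so every difference is between libraries, and intervals cover the sampling of peaks or genes only. No expression was measured, so the cell line was not checked by its markers.

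LSD1, encoded by KDM1A, is a demethylase that removes methyl groups from histone H3 lysine 4 and lysine 9 and acts with corepressor complexes. HP1γ, encoded by CBX3, is a heterochromatin protein that binds methylated lysine 9 of histone H3 and is also found in active gene bodies. In breast cancer cells, both have been described in a complex that the unliganded progesterone receptor keeps at hormone-inducible genes, and the 30 min lists address whether sites that hold both proteins keep them once progestin is present. BPTF is the large subunit of the NURF chromatin remodeller.

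The sequences below show 8 sites, chosen to stand for the highest LSD1 score, the highest HP1γ score, peaks of both proteins at 30 min, BPTF displaced or recruited by hormone, and promoters. Each is the plus strand of GRCh37, 300 bases centred on the middle of the stretch that the LSD1 and HP1γ peaks share. Capitals mark any match, on either strand, to 1 of 6 motifs: the full palindromic element of the progesterone and glucocorticoid receptors, in which AGAACA and its reverse complement TGTTCT stand 3 bases apart; AGAACA, its arm, which the full element contains; TGTTTAC of forkhead factors; AGATAA of GATA factors; GGGCGG, the GC box; and TGACTCA of AP-1.
SOX2-OT intron, chr3:181218023-181218322: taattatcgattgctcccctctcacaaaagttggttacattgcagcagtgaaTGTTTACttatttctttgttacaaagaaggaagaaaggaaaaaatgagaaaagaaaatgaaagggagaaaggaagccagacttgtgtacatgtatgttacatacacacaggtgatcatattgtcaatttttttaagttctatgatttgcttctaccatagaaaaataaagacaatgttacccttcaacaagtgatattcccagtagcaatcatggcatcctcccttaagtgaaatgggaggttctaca
FNDC3B intron, chr3:172004616-172004915: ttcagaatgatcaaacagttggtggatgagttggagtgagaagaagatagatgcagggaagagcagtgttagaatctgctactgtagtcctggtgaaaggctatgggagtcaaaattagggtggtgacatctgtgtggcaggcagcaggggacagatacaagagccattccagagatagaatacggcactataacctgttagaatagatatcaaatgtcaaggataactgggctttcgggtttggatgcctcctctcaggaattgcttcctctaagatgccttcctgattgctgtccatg
between genes, chr3:196259030-196259329: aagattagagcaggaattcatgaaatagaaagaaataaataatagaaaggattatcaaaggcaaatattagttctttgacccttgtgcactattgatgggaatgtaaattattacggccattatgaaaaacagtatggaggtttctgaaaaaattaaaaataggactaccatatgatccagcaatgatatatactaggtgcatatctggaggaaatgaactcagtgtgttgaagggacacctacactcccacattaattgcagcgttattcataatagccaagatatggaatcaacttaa
KMT2CP1 exon, chr1:148889210-148889509: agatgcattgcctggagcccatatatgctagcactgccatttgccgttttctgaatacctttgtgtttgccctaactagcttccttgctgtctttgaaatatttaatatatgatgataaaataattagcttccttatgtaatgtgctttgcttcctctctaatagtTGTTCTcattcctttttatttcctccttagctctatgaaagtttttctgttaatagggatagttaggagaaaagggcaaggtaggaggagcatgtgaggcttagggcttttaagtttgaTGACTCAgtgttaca
ATP13A5 exon, chr3:193081752-193082051: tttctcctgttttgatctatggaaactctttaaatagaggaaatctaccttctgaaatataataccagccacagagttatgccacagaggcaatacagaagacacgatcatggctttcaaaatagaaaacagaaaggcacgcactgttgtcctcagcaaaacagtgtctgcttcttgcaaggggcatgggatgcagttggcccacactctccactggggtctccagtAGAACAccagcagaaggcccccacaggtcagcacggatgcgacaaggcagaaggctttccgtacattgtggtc
between genes, chr3:172317866-172318165: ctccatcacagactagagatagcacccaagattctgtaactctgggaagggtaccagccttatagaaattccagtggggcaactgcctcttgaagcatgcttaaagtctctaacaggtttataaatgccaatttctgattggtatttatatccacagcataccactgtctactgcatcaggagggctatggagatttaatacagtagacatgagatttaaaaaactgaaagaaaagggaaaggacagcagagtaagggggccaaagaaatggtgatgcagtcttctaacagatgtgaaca
COPA and NCSTN promoter, chr1:160314028-160314327: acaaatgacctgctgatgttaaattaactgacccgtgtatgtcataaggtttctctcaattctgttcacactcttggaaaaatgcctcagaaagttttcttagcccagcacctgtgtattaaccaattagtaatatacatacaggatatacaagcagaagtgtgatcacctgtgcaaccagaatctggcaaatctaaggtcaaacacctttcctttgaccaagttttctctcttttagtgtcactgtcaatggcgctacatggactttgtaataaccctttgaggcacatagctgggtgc
TMEM81 promoter, chr1:205054428-205054727: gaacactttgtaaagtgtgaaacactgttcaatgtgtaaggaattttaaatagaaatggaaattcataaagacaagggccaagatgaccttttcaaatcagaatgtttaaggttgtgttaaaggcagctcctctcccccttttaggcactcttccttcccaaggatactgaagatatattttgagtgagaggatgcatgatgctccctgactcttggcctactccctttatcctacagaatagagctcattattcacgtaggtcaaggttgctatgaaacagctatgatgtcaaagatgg

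The SOX2-OT site had the highest LSD1 score of all LSD1-HP1γ sites, and its window holds 1 forkhead match. The FNDC3B window lies under the HP1γ peak with the highest score and has no match. At 30 min both the intergenic site at chr3:196259051-196260319 and the KMT2CP1 site again had peaks of LSD1 and HP1γ, and the KMT2CP1 window holds 1 AGAACA and 1 TGACTCA match. The 30 min HP1γ peak of the intergenic site lies outside the window shown. The ATP13A5 site lost BPTF with hormone in the authors' deposited list, and its window holds 1 AGAACA match. The intergenic site at chr3:172317737-172318438 gained BPTF, and neither it nor the promoter windows hold a match. A match is only a description of these letters.

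The letters of the sites were close to those of other LSD1 peaks. In 300 bp windows at the LSD1 midpoint, the full palindrome was found in 0 of 2479 sites, for which 3 counts of the total allow a share of up to 0.121% and the Wilson interval one of up to 0.155%, in 3 of 32511 other LSD1 peaks and in 1 of 35116 RefSeq promoters of the same length (GRCh38.p14). AGAACA was found in 26.1% of sites (95% Wilson interval 24.4% to 27.8%), 25.9% of other LSD1 peaks and 14.8% of RefSeq promoters. AGATAA was found in 24.1%, 24.7% and 10.3%. TGTTTAC was in 5.57% of sites and 5.38% of other LSD1 peaks, and TGACTCA in 5.12% and 4.90%, against 3.42% and 4.95% of RefSeq promoters. GGGCGG was in 1.49% of sites, 1.23% of other LSD1 peaks and 45.0% of RefSeq promoters. Other HP1γ peaks held AGAACA in 23.5%, AGATAA in 18.8%, TGTTTAC in 4.22%, TGACTCA in 5.47% and GGGCGG in 3.91%. RefSeq promoters were not matched to the sites in base composition. The interval of the difference between sites and other LSD1 peaks included 0 for each of the 6 motifs. Split by position, AGAACA was more frequent at sites in exons (34.9% against 25.6% of other LSD1 peaks in exons, a difference of 9.27 percentage points, Newcombe interval 3.69 to 15.2) and at promoters (33.3% against 23.7%, 9.61 points, 0.24 to 20.2). In introns the difference was -0.98 points and between genes -2.12, with intervals that included 0. This split was 1 of several made after the values were seen.

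Sites were AT-rich. Their median GC content was 38.7%, against 37.7% at other LSD1 peaks and 43.0% at other HP1γ peaks. The sites are LSD1 peaks read at the LSD1 midpoint, which favours closeness to other LSD1 peaks. At the middle of the overlap their median was 39.7%. An observed-to-expected CpG ratio of at least 0.6 was found at 28 sites (1.13%), against 0.98% of other LSD1 peaks and 2.51% of other HP1γ peaks.

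The overlaps were partial. The shared stretch had a median of 380 bp and ran from 1 to 1578 bp, which covered a median of 58.1% of the LSD1 peak and 70.3% of the HP1γ peak. The midpoints lay a median of 200.0 bp apart. At 1377 sites (55.6%) the overlap covered at least 50% of both peaks. 57 sites held a second HP1γ peak, and 43 HP1γ peaks touched more than 1 site. At the edge of the rule, 29 sites overlapped by 10 bp or less, with a median LSD1 score of 40.9, and 31 LSD1 peaks missed an HP1γ peak by under 10 bp, with 33.0. Of the former, 0 had an LSD1 peak and 1 an HP1γ peak at 30 min, and of the latter 1 and 3.

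Scores, which the authors' peak caller gave and which start at 30, were modest for both proteins. The median LSD1 score was 39.8 (25th to 75th percentile 33.8 to 50.1), against 36.1 at other LSD1 peaks, and the median HP1γ score was 37.5, against 35.5 at other HP1γ peaks. Sites also had wider LSD1 peaks, with a median of 616 bp against 533 bp. These values come from the peaks that made the choice and are descriptions. The share of LSD1 peaks that were sites went from 4.21% in the narrowest 25% to 12.3% in the widest, and from 4.97% in the lowest 25% of scores to 10.9% in the highest. Within the sites the 2 scores moved little together: over the 2479 sites, which share libraries, their Spearman correlation was 0.09. The rule asked for a called peak of each protein, so this value does not give the relation of both strengths over all peaks. Scores of both proteins reached 50 at 168 sites and 80 at 7, with the HP1γ peak of the longest overlap taken where a site had 2. Of all sites, 1052 had the same width and score as another site, with up to 10 sites alike.

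**Figure D1:**
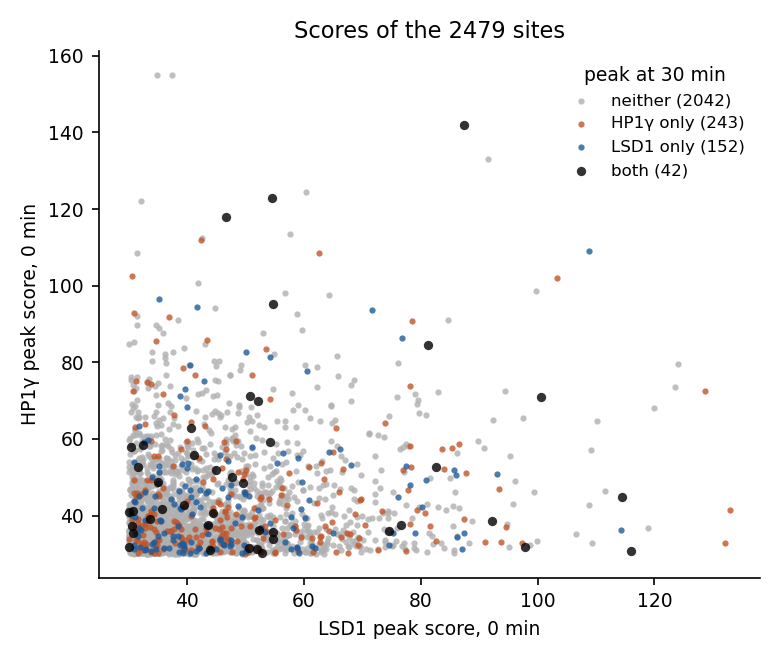
LSD1 score (x axis) against HP1γ score (y axis) at 0 min for each of the 2479 sites, coloured by the protein with a peak there at 30 min. Most sites lie below 50 on both axes, few are high for both proteins, and of the 42 sites with both peaks at 30 min (black) 21 are in the top 25% of LSD1 scores and 19 in the top 25% of HP1γ scores.

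The site with the highest LSD1 score, 133, lay in an intron of SOX2-OT, a long noncoding RNA gene that overlaps SOX2, and its HP1γ score was 41.6. An intron of IGF2BP2, an mRNA-binding protein gene, followed at 132, with an HP1γ score of 32.9. IL1RAP, which encodes a subunit of the interleukin-1 receptor, held a site strong in both, at 124 for LSD1 and 79.6 for HP1γ. Of the 10 sites with the highest LSD1 score 9 lay on chromosome 3, 3 again had an LSD1 peak at 30 min, 5 an HP1γ peak and 4 neither.

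The highest HP1γ score, 155, belonged to a peak of FNDC3B, a fibronectin-domain gene, which touched 2 sites with LSD1 scores of 37.4 and 34.9. Neither kept a peak at 30 min. A peak between genes at chr21:41346162-41346999 had 87.4 for LSD1 and 142 for HP1γ, and both proteins had peaks there again at 30 min, with scores of 57.0 for LSD1 and 56.9 for HP1γ in those lists. Sites in MECOM, a zinc finger transcription factor gene (HP1γ 123), and MUC4, a membrane mucin gene (118), also had both at 30 min, with LSD1 scores of 64.2 and 49.3. Scores of different lists are given side by side and are not compared. Sites in PEX5L (125), EHHADH (122), ZNF678 (113) and AGMO (113) had neither peak at 30 min. Of the 10 sites with the highest HP1γ score, 7 lay on chromosome 3, and 3 had peaks of both proteins at 30 min, whereas 7 had neither. In MECOM the 30 min HP1γ peak overlapped the 0 min LSD1 peak but not the 0 min HP1γ peak.

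Most sites had no peak of either protein after 30 min of progestin. An LSD1 peak overlapped 194 of 2479 sites (7.83%, interval 6.83% to 8.95%), where 3.71% of all LSD1 peaks had one. An HP1γ peak overlapped 285 (11.5%, 10.3% to 12.8%), where 4.77% of all LSD1 peaks had one. Both were present at 42 sites (1.69%, against 0.4% of all LSD1 peaks) and either at 437 (17.6%, against 8.08%), which left 2042 sites (82.4%) with neither. The 30 min lists were shorter, with 20495 LSD1 and 23836 HP1γ peaks over 9.45 and 11.2 Mb. At 0 min there were 34990 and 31845 peaks over 20.53 and 16.44 Mb. The depth of these libraries is unknown, so loss of binding and fewer peaks called cannot be told apart.

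LSD1 recurred more often at the sites than at LSD1 peaks without HP1γ. Other LSD1 peaks had an LSD1 peak at 30 min in 3.399%, a difference of 4.43 percentage points (Newcombe interval 3.41 to 5.57), and an HP1γ peak in 4.25%, a difference of 7.24 points (6.03 to 8.58). The rule chose these other LSD1 peaks for having no HP1γ at 0 min, so the HP1γ difference to them, here and in the splits below, is a description whose direction the choice favours. HP1γ recurrence is measured against other HP1γ peaks. Both peaks were present at 0.30% of other LSD1 peaks, 1.39 points fewer (0.95 to 1.98). At 0 min, 2492 HP1γ peaks (7.83% of 31845) touched a site. Of these 265 (10.6%) overlapped an HP1γ peak at 30 min, where 4.31% of all HP1γ peaks did, against 3.77% of other HP1γ peaks (6.86 points, 5.69 to 8.15). An LSD1 peak at 30 min lay at 180 of them (7.22%), where 3.12% of all HP1γ peaks had one, against 2.78% of the others, which the rule chose for having no LSD1 at 0 min (4.45 points, 3.48 to 5.55). Both lay at 36 of them (where 0.405% of all HP1γ peaks had both) and either at 409 (16.4%, where 7.03% had either).

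**Figure D2:**
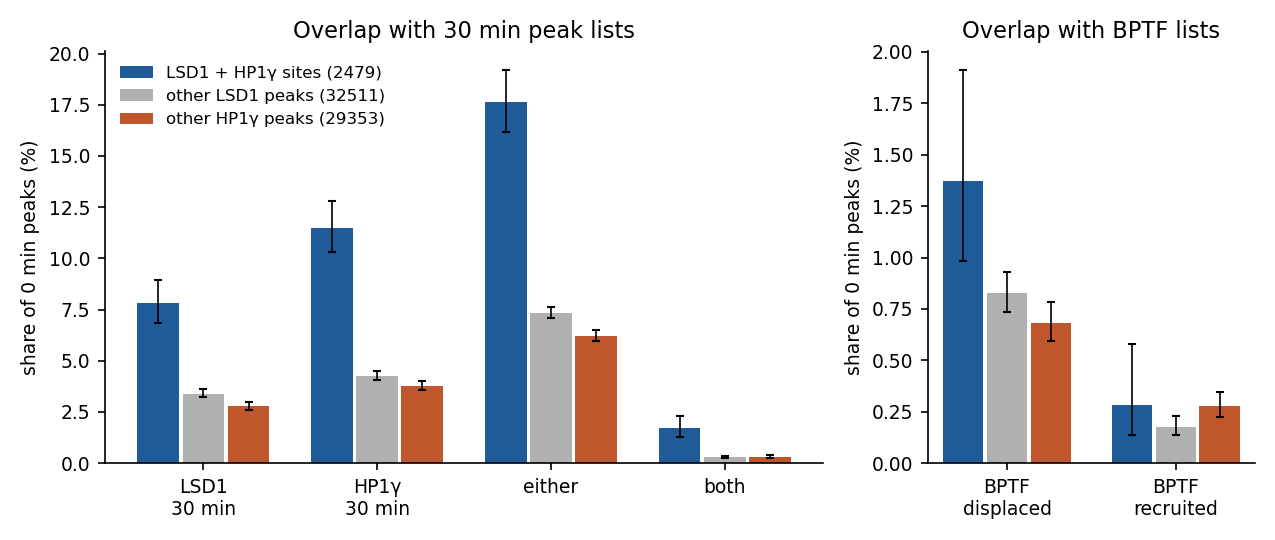
Share of 0 min peaks (y axis, %) that overlapped peaks of the 30 min lists (left) and the BPTF lists (right), for the 2479 sites, other LSD1 peaks and other HP1γ peaks, with 95% Wilson intervals over peaks. The sites stand above both other groups for LSD1, HP1γ, either and both, while the intervals for recruited BPTF overlap.

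The 30 min peak touched the stretch both proteins had shared at 160 of the 194 sites with LSD1 (82.5%) and at 235 of the 285 with HP1γ (82.5%). The stretch covers a median of 58.1% of the LSD1 peak and a touch of 1 bp counted, so these shares are descriptions, and the share that position alone would give was not computed. The midpoint of the 30 min LSD1 peak lay a median of 201 bp from that of the 0 min LSD1 peak, and that of the HP1γ peak 243 bp, against 222 and 219 bp at other LSD1 peaks with a 30 min peak of LSD1 or HP1γ. Sites without an overlap lay a median of 13470 bp from the nearest 30 min LSD1 peak and 10970 bp from the nearest HP1γ peak, against 22570 and 18200 bp for other LSD1 peaks. Within 1 kb, 6.74% of these sites had an LSD1 peak and 8.20% an HP1γ peak, against 3.94% and 4.52%.

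The 30 min peaks of both proteins coincided in part. Among sites with an LSD1 peak at 30 min, 21.6% also had an HP1γ peak (interval 16.4% to 28.0%), against 10.6% of sites without (9.436% to 11.97%). Other LSD1 peaks, which had no HP1γ at 0 min, showed the same order, 8.87% against 4.09%. At 30 min, 730 LSD1 peaks (3.56% of that list) overlapped an HP1γ peak. Of these 730 positions 38 (5.21%) lay at a site of 0 min, against 159 (0.80%) of the other LSD1 peaks of 30 min, so most positions shared at 30 min were not sites before hormone.

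The sites with the longest overlaps and the highest scores had 30 min peaks most often, though not in steps. From the shortest to the longest quartile of shared stretch (the longest is 470 to 1578 bp), 13.5%, 12.7%, 16.8% and 27.4% had a 30 min peak of either protein. For LSD1 alone the shares were 7.26%, 4.52%, 6.46% and 13.1%, so the shortest overlaps exceeded both middle quartiles. By LSD1 score the share with either went 11.6%, 14.4%, 19.4% and 25.2%, and by HP1γ score 14.5%, 16.9%, 17.8% and 21.3%. By HP1γ score LSD1 was present at 7.58%, 5.48%, 8.08% and 10.2%. Sites with both 30 min peaks had a median LSD1 peak of 945 bp and a median score of 50.01, and those with neither had 598 bp and 38.9.

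Since width, score and crowding of peaks moved with the 30 min peaks, the difference to other LSD1 peaks was taken within quartiles of each. The HP1γ difference had an interval above 0 in every quartile of LSD1 width, LSD1 score, LSD1 peaks in 1 Mb and HP1γ peaks in 1 Mb. The LSD1 difference did so in all but quartile 2 of LSD1 peaks in 1 Mb (1.09 points, -0.33 to 3.13) and quartiles 2 and 3 of HP1γ peaks in 1 Mb (1.16 and 0.35 points). Within the widest peaks, 11.3% of sites and 5.53% of other LSD1 peaks had an LSD1 peak at 30 min, and 16.6% and 7.32% an HP1γ peak. In the narrowest, the values were 4.55% and 2.30% for LSD1 and 5.35% and 2.78% for HP1γ.

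**Figure D3:**
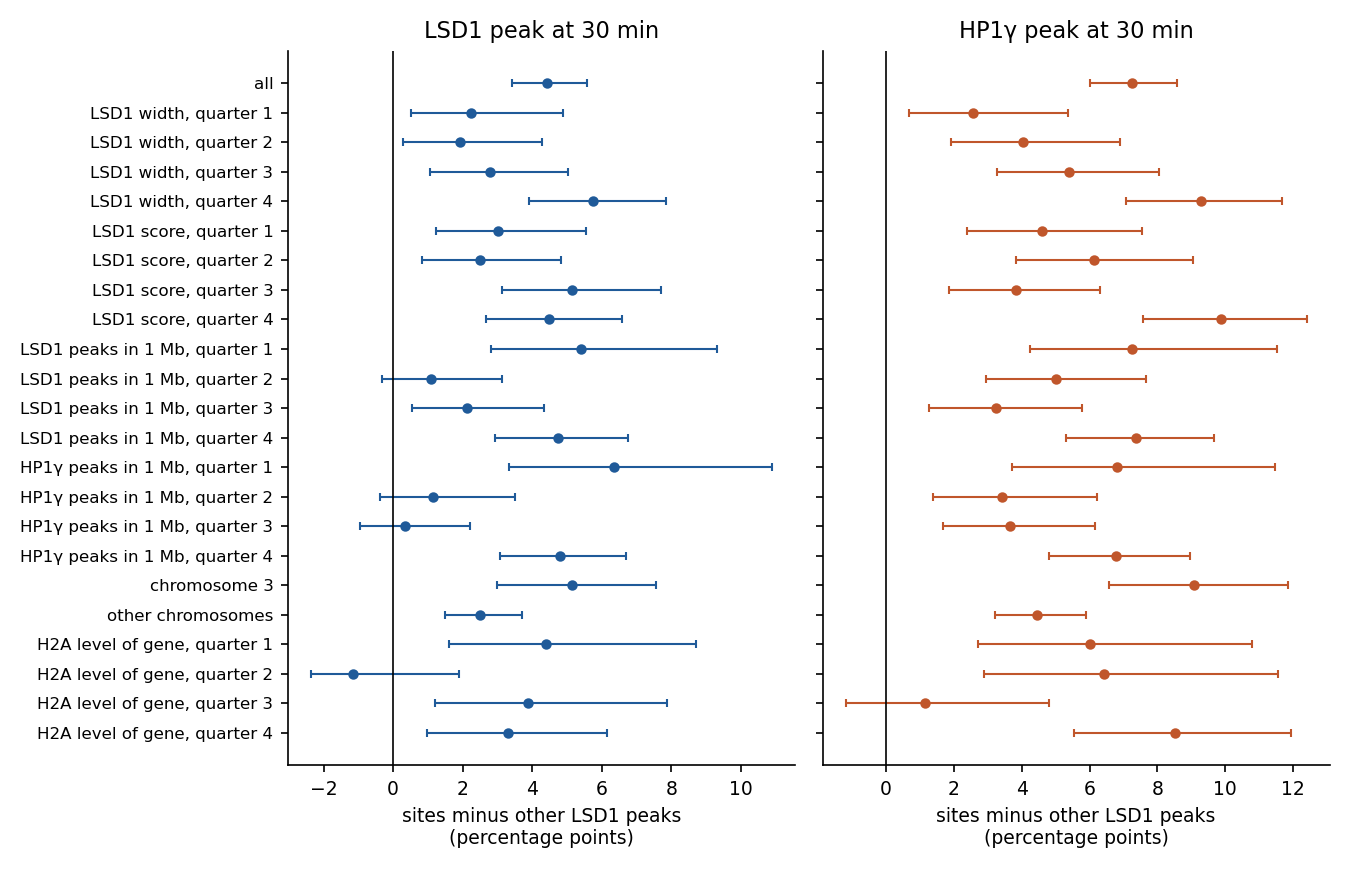
Difference in the share with a 30 min peak of LSD1 (left) or HP1γ (right) between sites and other LSD1 peaks (x axis, percentage points, Newcombe 95% intervals over peaks), in all peaks and within quartiles or chromosomes (y axis). All points lie right of 0 except LSD1 in quartile 2 of gene H2A level, at -1.16.

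Strong sites with 30 min peaks of both proteins included an intergenic site at chr3:196259051-196260319 (LSD1 score 116) and one in the pseudogenes KMT2CP1 and KMT2CP3 at chr1:148888437-148889934 (114). At the intergenic site the 30 min HP1γ peak overlapped the 0 min LSD1 peak but not the 0 min HP1γ peak. A site in NBEAP1, another pseudogene, at chr15:20871449-20872230 had 101. Pseudogene sequence has near copies elsewhere, so the placement of its reads is uncertain. NAALADL2, a glutamate carboxypeptidase-like gene, held 2 of the 10 highest (97.8 and 76.7), and MYNN, a zinc finger gene, 1 (92.2). Of these 10, 7 lay on chromosome 3. Of all 42 sites with both 30 min peaks, 28 (66.7%) lay on chromosome 3, against 648 (31.7%) of those with neither. Assembly gaps were within 1 Mb of 9 of the 42 (21.4%, 11.7% to 35.9%), against 8.23% of sites with neither peak and 7.15% of other LSD1 peaks.

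Few sites were in the BPTF lists. The displaced list, 5546 positions from which the authors report BPTF lost with hormone, held 34 sites (1.37%, interval 0.98% to 1.91%), where it held 0.866% of all LSD1 peaks. Against other LSD1 peaks (0.83%) the difference was 0.54 points (0.14 to 1.09). Its interval included 0 once chromosomes were split: on chromosome 3, with 21 of the 34, the values were 2.35% and 1.64% (0.71 points, -0.18 to 1.96), and elsewhere 0.82% and 0.67% (0.15 points, -0.21 to 0.73). The recruited list of 1848 positions held 7 sites (0.28%), where it held 0.183% of all LSD1 peaks, and the difference of 0.11 points had an interval of -0.05 to 0.41. By position the displaced difference had an interval above 0 in exons (8 sites, 2.88% against 1.05%) and between genes (11 sites, 1.35% against 0.69%), and not in introns (15 sites, 1.15% against 0.88%). Of the HP1γ peaks at the sites, 33 were in the displaced list, where 0.732% of all HP1γ peaks were, and 10 in the recruited list, where 0.289% were. Of the 34 displaced sites 26 had neither LSD1 nor HP1γ peak at 30 min, 3 LSD1 alone, 4 HP1γ alone and 1 both.

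The displaced sites were led by the SOX2-OT intron, where an HP1γ peak (score 50.2) was present at 30 min and no LSD1 peak. Next were 2 adjacent sites in ATP13A5, a P-type ATPase gene (LSD1 scores 59.7 and 59.0), under 1 HP1γ peak, and the former had an LSD1 peak at 30 min. Sites in ZMAT3, an RNA-binding protein gene (58.7), DLG1, a scaffold gene (55.3), and DGKG, a diacylglycerol kinase gene (54.9), had no 30 min peak. RNF115, a ubiquitin ligase gene on chromosome 1 (56.1), kept HP1γ, and a site of NAALADL2 (52.4) kept both. The 7 recruited sites lay in ASAP1, a GTPase regulator gene (73.7), SOX2-OT (67.6), TP63, a transcription factor of basal epithelium (48.8), FHL1P1 (47.6) and PLAAT1 (38.4), between genes (56.3), and at the promoter of H3C1, a replication histone gene (49.5). Of these SOX2-OT had an HP1γ peak and FHL1P1 an LSD1 peak at 30 min, and the other 5 had neither.

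Promoters, here within 1 kb of a protein-coding start, held 90 sites (3.63%, interval 2.96% to 4.44%), more than the 2.58% of other LSD1 peaks (1.05 points, 0.36 to 1.88) and near the 4.39% of other HP1γ peaks. Introns held 1299 (52.4%), exons 278 (11.2%) and the space between genes 812 (32.8%), and the intervals of these differences to other LSD1 peaks included 0. Sites in exons had an LSD1 peak at 30 min in 10.1% and an HP1γ peak in 14.0%, against 3.51% and 4.80% of other LSD1 peaks in exons (6.57 points, 3.48 to 10.7, and 9.23 points, 5.55 to 13.9). At promoters 7 of 90 sites had LSD1 (4.44 points more than other LSD1 peaks there, 0.23 to 11.9) and 10 had HP1γ (4.67 points, -0.63 to 12.9). A peak of either protein lay at 17.8% of sites at promoters, 21.6% in exons, 17.8% in introns and 16.01% between genes. No promoter site was in the displaced list, 0 of 90, for which 3 counts of the total allow a share of up to 3.33% and the Wilson interval one of up to 4.09%. Of other LSD1 peaks at promoters 6 of 839 (0.72%) were in it, so 0 of 90 does not set the promoter sites apart.

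The promoter site with the highest LSD1 score, 109, lay within 1 kb of the starts of both COPA, a coatomer subunit gene, and NCSTN, which encodes nicastrin of the gamma-secretase complex. Promoters of TMEM81 (99.5), USP13, a deubiquitinase gene (90.9), PEX5L (85.7) and TBCCD1 (65.9) followed, all without a 30 min peak. FBXO3, an F-box gene (78.2), kept HP1γ and FAM117A (64.3) kept LSD1. STMN2, a neuronal stathmin gene (64.0), ZNF736 (57.8) and RPP30, a ribonuclease P subunit gene (54.6), kept neither. Of these 10 promoters 8 had no 30 min peak.

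The sites were unevenly spread over the genome. Chromosome 3 held 894 (36.1%), which is 4.51 per Mb, and 840 of them lay beyond its longest assembly gap, at chr3:90504855-93504854. The 894 sites made up 14.7% of the LSD1 peaks of the chromosome, against 7.08% over the genome. Chromosomes 1, 12 and 8 held 227, 212 and 199, chromosomes 2, X and 18 held 2, 1 and 1, and chromosome 22 held none. Of bins of 5 Mb, the 10 fullest held 827 sites (33.4%), and 9 of the 10 were on chromosome 3. The bin at chr3:170000001-175000000 had 134 sites among 571 LSD1 peaks (23.5%). Some sites had near neighbours: 460 had another whose start lay within 10 kb. Counted by gaps of at most 10 kb between peaks, there were 219 groups of 2 to 6 sites. The same counts over all LSD1 peaks were not made.

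Peaks of 30 min were more frequent on chromosome 3 at sites and at other LSD1 peaks alike. LSD1 peaks of 30 min lay at 12.6% of its sites and 7.50% of its other LSD1 peaks (5.14 points, 2.98 to 7.58), and at 5.11% and 2.62% elsewhere (2.49 points, 1.49 to 3.70). HP1γ peaks lay at 18.01% and 8.93% on chromosome 3 (9.08 points, 6.57 to 11.8) and at 7.82% and 3.37% elsewhere (4.46 points, 3.21 to 5.90). The sites stood above other LSD1 peaks in both places. On chromosomes 5 and 12, LSD1 peaks of 30 min lay at 2 of 120 and 5 of 212 sites (1.67% and 2.36%). HP1γ peaks lay at 12 and 12 of these (10.0% and 5.66%). Chromosomes 6, 13 and 14, with 27, 6 and 16 sites, had 0 of either. The shares of other LSD1 peaks were not computed for these chromosomes, so the values do not set them apart.

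**Figure D4:**
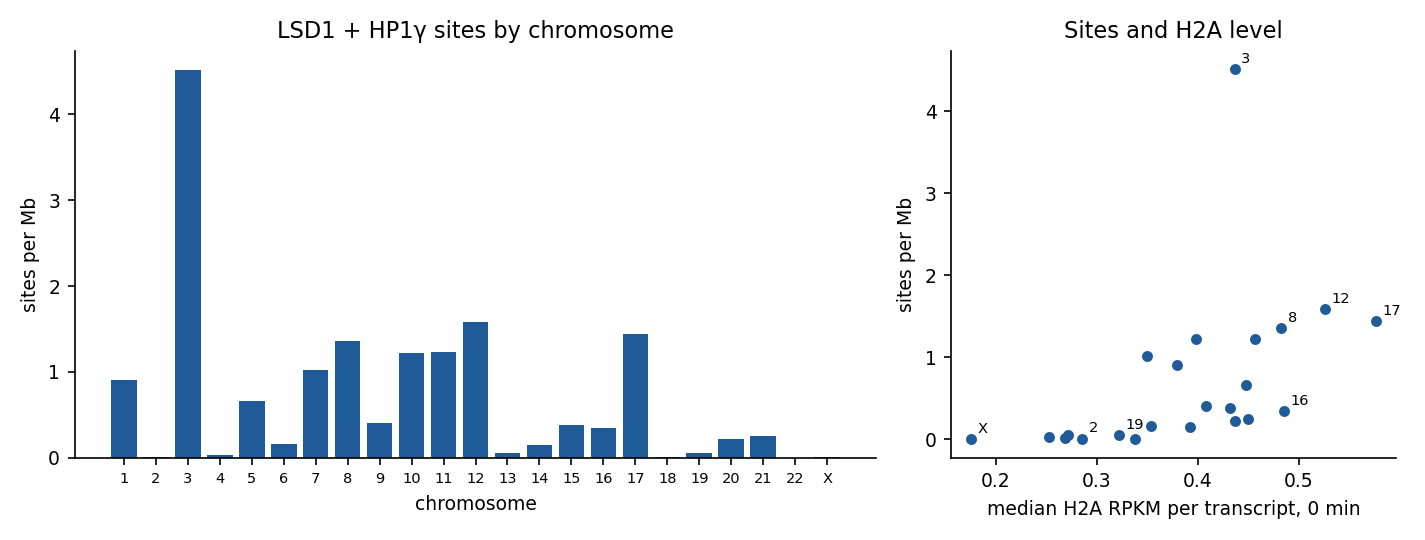
Sites per Mb for each chromosome (left), and the same against the median H2A RPKM per annotated transcript of its genes at 0 min (right, 23 chromosomes as points). Chromosome 3 stands apart at 4.51 sites per Mb, with an H2A level of 0.437, below those of chromosomes 12 and 17.

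The H2A level over genes, which was read in other libraries, moved with the sites. The deposited RPKM rises with the number of annotated transcripts of a gene (Spearman 0.83 over genes), so levels were divided by it. Transcript numbers were those of GENCODE version 44, later than the version 18 of the RPKM values, so the division is approximate. At 0 min the median was 0.538 RPKM per transcript at 798 genes with a site in the gene or 5 kb around it (interval 0.516 to 0.555) and 0.365 at 18308 genes without (0.361 to 0.368). Among genes of at least 100 kb it was 0.496 and 0.302. On chromosome 3 beyond the gap the values were 0.843 and 0.471, and before the gap 0.383 and 0.375. Over 23 chromosomes, which share 1 library, the Spearman correlation of sites per Mb with the median level was 0.77, and 0.80 without chromosome 3. The part of this level in the number of sites was not tested.

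The 30 min peaks were also read within quartiles of the H2A level of the gene around a peak. For HP1γ, sites exceeded other LSD1 peaks by 6.02, 6.42, 1.14 and 8.52 points from the lowest to the highest level, and the interval of quartile 3 included 0 (-1.19 to 4.82). For LSD1 the differences were 4.39, -1.16, 3.88 and 3.31 points, and that of quartile 2 included 0 (-2.36 to 1.90). In genes of chromosome 3 beyond the gap the difference was 8.19 points for HP1γ (4.35 to 12.6) and 2.31 for LSD1, where the interval included 0 (-0.82 to 6.07).

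Long genes of chromosome 3 held the most sites. A site lay in 825 of the 20318 protein-coding genes with H2A values (4.06%), and 186 genes had at least 2 and 34 at least 5. Their median length was 88.8 kb, against 20.7 kb without a site. NLGN1, a synaptic adhesion gene, held 25 sites among 122 LSD1 peaks, and 15 of its sites had neither 30 min peak, 3 an LSD1 peak, 8 an HP1γ peak and 1 of these both. FGF12, of the fibroblast growth factor family, held 19 (11 with neither, 2 with LSD1 and 6 with HP1γ), and MECOM 17 (12 with neither, 3 with LSD1, 3 with HP1γ, of which 1 both). CADM2, a cell adhesion gene, held 14, KCNMB2, a potassium channel subunit gene, 13, LPP, a LIM domain gene, 13, and the kinase gene TNIK 12. NAALADL2, counted over the shorter gene model of the H2A values, held 11, the potassium channel subunit gene KCNAB1 11 and FNDC3B 9. All 10 lie on chromosome 3, and they held between 1.25 (CADM2) and 3.59 (NAALADL2) sites per 100 kb.

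Genes of the hormone and chromatin lists held single sites for the most part. Of 34 progestin response genes 4 had a site, which is 11.8% against 4.06% of all genes: STAT5B, which transmits prolactin signals, and BCL6, a repressor, had 1 each, and TIPARP, an ADP-ribosyltransferase gene, and EGFR, the epidermal growth factor receptor gene, had 2 each. Of these 6 sites 1, in TIPARP, had an HP1γ peak at 30 min. Of the estrogen response list 2 of 16 had a site (RARA and IGFBP4), of luminal markers 2 of 18 (the keratin KRT19 and the prolactin receptor PRLR), and none of these sites had a 30 min peak. Basal and mesenchymal markers had 2 of 16, the actin gene ACTA2 with 2 sites and TP63 with 8, of which 7 had neither peak and 1 an HP1γ peak. The LSD1, CoREST and HP1 list had 2 of 20 (CBX5, which encodes HP1α, and GSE1) and the remodellers 2 of 23 (SMARCE1 and ACTL6A), where the SMARCE1 site had an LSD1 peak at 30 min. Poly-ADP-ribose and NAD genes had 2 of 21, PARP1, the main poly-ADP-ribose polymerase, and TNKS2, and immune markers 1 of 16 (PTPRC), all with neither peak. No listed gene with a site passed 0.5 in its H2A change, described next. Every list stood above the 4.06% of all genes, from 6.25% (immune) to 12.5% (estrogen response, and basal and mesenchymal). The higher share was thus not particular to progestin response genes. Shares of lists this small move by several points with 1 gene.

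H2A over genes with a site had median differences close to 0 after hormone. The median log2 change, of RPKM plus 0.05, was 0.01 at 30 min over 821 genes with a site and -0.14 over all 19709 genes tested, and 0.02 and -0.03 at 60 min. The 4449 genes with an LSD1 peak at 0 min but no site had -0.03 and 0.008. Medians near 0 were thus not particular to genes with a site. Past 0.5 on this scale at 30 min were 3 genes with a site higher and 2 lower, where 0.345% of all genes were higher and 1.99% lower. Centring on the median of all genes moves every gene up by the same amount, and the split was then 15 higher and 0 lower. The share over all genes was not computed for it, so no rise is read from the 15. With the GC trend taken off the split was 2 and 0, where 0.396% of all genes were higher and 0.238% lower. At 60 min, as deposited, 1 was higher and 1 lower, where 0.249% and 0.639% of all genes were. These genes, named after their values were seen, were SI, AC090186.1 and ENSG00000269267 on the higher side at 30 min and the histone genes HIST1H3A, now H3C1, and HIST1H2AE on the lower. At 60 min AC090186.1 was higher and ENSG00000269267 lower. All but SI are shorter than 1 kb, and the site lay beside the gene and not in it for each of the 5. HIST1H3A read 1.08, 0.71 and 0.835 RPKM at 0, 30 and 60 min, and as a member of a family of near-identical genes its reads are uncertain. Both times share the 0 min library. Genes with a site are GC-poor, with a median of 40.3% against 45.8%, and the change followed GC. With the GC trend taken off, the medians were -0.01 and 0.00 at genes with a site and 0.00 and 0.00 over all genes. As deposited, genes of at least 100 kb had 0.04 with a site and 0.01 without at 30 min. With the GC trend off these were -0.009 and -0.005.

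**Figure D5:**
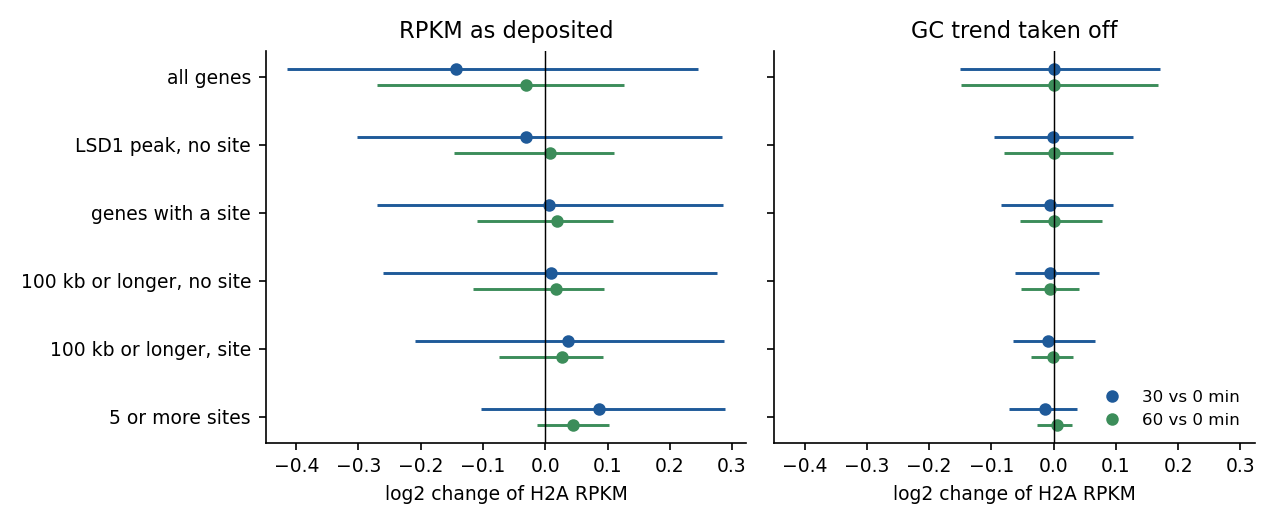
Median (point) and 5th to 95th percentile (line) of the log2 change of H2A RPKM (x axis) at 30 and 60 min against 0 min for groups of genes (y axis), as deposited (left) and with the GC trend taken off (right). As deposited, genes with a site lie at 0.01 at 30 min, genes with an LSD1 peak but no site at -0.03 and all genes at -0.14. With the GC trend off all groups have medians close to 0.

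NLGN1, with the most sites, read 9.01 RPKM at 0 min, 10.7 at 30 min and 9.53 at 60 min. The 30 min value was the highest, and the log2 change of 0.25 came to -0.01 with the GC trend off. MECOM read 15.7, 17.4 and 16.6 RPKM (0.15, and 0.01 off the trend), and LPP 15.4, 15.1 and 15.5 (-0.02, and -0.06). Among genes of at least 10 kb with a site, the largest positive difference was at SI, the intestinal sucrase-isomaltase gene, with 1.08, 1.62 and 1.26 RPKM. Its log2 change of 0.56 at 30 min was 0.22 off the trend. BCHE, a cholinesterase gene (0.48), BRINP3 (0.45) and the transporter gene SLC6A15 (0.41) followed and came to 0.14, 0.11 and 0.07. The largest negative differences were at EVPLL and SETD1B, a histone methyltransferase gene, both -0.41, EIF4G1, a translation initiation gene (-0.37), TBC1D28 (-0.35) and SLC38A10 (-0.34). EIF4G1 read 60.1, 46.6 and 53.2 RPKM, lowest at 30 min. With the trend off, these 5 had between -0.03 and -0.16. Of the listed genes, KRT19 (-0.36), GSE1 (-0.32) and RARA (-0.32) had the lowest values and PTPRC (0.35) the highest, and with the trend off they had -0.05, 0.01, -0.01 and 0.01.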

How the data were processed

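Peak lists of LSD1 and HP1γ at 0 and 30 min, positions of displaced and recruited BPTF peaks and H2A values over genes were used, 1 library per antibody and time. The tools named are Bowtie 1.0.0 and HOMER 4.7.2 and the build is hg19 (GRCh37), per the submitters' processing notes. Each LSD1 and HP1γ peak has a score, as the authors deposited it; no definition of the score, caller version or control is given in the sources used here. Their BPTF lists hold positions as deposited by the authors, with no score or criterion. The H2A values are RPKM from HOMER over GENCODE version 18, counted on both strands, per the file headers.

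Overlaps of at least 1 bp were computed in Python 3.11.15 and checked against bedtools 2.31.1. Shares have Wilson and differences Newcombe 95% intervals (statsmodels 0.14.6), and medians of GC and H2A have order-statistic intervals. These cover the sampling of peaks or genes and not cultures, and neighbouring peaks are not independent. No p-value was computed. The functions were tested on simulated data. Positions were classed by GENCODE version 44 lifted to GRCh37, in the order promoter (1 kb either side of a protein-coding start), exon of any gene, intron, intergenic. Genes took sites in the body plus 5 kb. H2A changes are log2 ratios of RPKM plus 0.05, so low genes appear to change less than they did. Genes had to reach a mean RPKM of 0.1. The GC trend was the median in 50 bins. The H2A libraries were estimated to hold 141, 169 and 133 M reads, from steps in the RPKM of genes with 1 transcript. At these depths 97.4%, 98.1% and 97.8% of 114, 106 and 134 values were whole within 0.02 reads plus rounding. The shares whole by chance were 18.6%, 21.5% and 16.9%. Whole multiples of these depths could fit too and were not tried. The depth of the other libraries is unknown. RefSeq promoters are 300 bases each, GRCh38.p14. Sequences were read from GRCh37.

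The sites and gene lists were chosen with earlier results of these data known. Named sites are the 10 with the highest LSD1 score in each class, the 10 with the highest HP1γ score, the 10 genes with most sites, every list gene with a site, and the 5 largest H2A differences in each direction at 30 min in genes of at least 10 kb; of these, those that best show each class are in the text, and 1 gene is not reported here. No sequence from chromosome 8 is shown. Alternatives to the overlap, score filter, chromosomes, promoter window, pseudocount, filter and centring were tried.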

Additional observations from a re-analysis of the deposited data

How the results depend on the processing

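No paired analysis was possible because each group has 1 sample and no replicate could be left out. Sites exceeded other LSD1 peaks in the share with LSD1 and with HP1γ at 30 min, with intervals above 0, under every alternative setting run but 6, and among positions the HP1γ interval at promoters also included 0 (4.67 points). For LSD1 these were quartile 2 of LSD1 peaks in 1 Mb (1.09 points) and, added after seeing the data, quartiles 2 and 3 of HP1γ peaks in 1 Mb (1.16 and 0.35), quartile 2 of gene H2A level (-1.16, a reversed sign) and genes of chromosome 3 beyond its gap (2.31). For HP1γ it was quartile 3 of gene H2A level, also added later (1.14). The cause was not tested. Other LSD1 peaks were chosen for having no HP1γ at 0 min, which favours the direction of the HP1γ difference under each setting. The settings therefore do not test that direction, and the difference to other HP1γ peaks was not run under them.

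An overlap of at least 50% of the LSD1 peak, asked of all lists and so stricter by construction, gave 1493 sites, with LSD1 at 3.82%, HP1γ at 6.10%, both at 0.40%, displaced BPTF at 0.87% and recruited at 0.13%. The LSD1 midpoint inside the HP1γ peak gave 1584 sites. A score of at least 50 at 0 min gave 171 sites (3 more than by the HP1γ peak of longest overlap) with 15.2%, 19.9%, 5.26% and 0 recruited, or 6.43%, 6.43%, 1.17% and 0 when asked of all 4 lists. Those 171 lay at promoters in 2.34%, introns in 57.9% and between genes in 23.4%, and held AGAACA in 21.6%, AGATAA in 21.6%, GGGCGG in 0.58% and TGACTCA in 8.19%. Without chromosomes 3 and 12 there were 1373 sites with 5.54%, 8.16% and 0.95%, displaced BPTF 0.87%, introns 49.7% and between genes 35.7%. Without chromosome 3 alone, added later, the values were 5.11%, 7.82%, 0.88% and 0.82% displaced. A promoter window of 5 kb gave 10.4% at promoters and 48.4% in introns. At the middle of the overlap the median GC content was 39.7%.

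H2A medians at 30 and 60 min were 0.148 and 0.0507 after centring on all genes, whose median shift was -0.14 at 30 min. They were 0.0328 and 0.0317 with scores of at least 50, and 0.036 and 0.0271 in genes of at least 100 kb (added later), and the 60 min median was 0.00102 off the GC trend. Genes past 0.5 at 30 min numbered 15 higher and 0 lower after centring, 1 and 0 with scores of at least 50, and 0 lower off the GC trend or with 50% overlap. The share over all genes after centring was not computed, so no rise is read from the 15. Off the GC trend the share over all genes was 0.396% higher and 0.238% lower. All 4 counts were 0 with a pseudocount of 0.5 or in the gene body alone. At 60 min 2 were lower without the filter and 0 with scores of at least 50. Depth of the peak libraries is unknown, which limits every share.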

Other observations

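Of the 53 named sites, 30 remained sites when 50% of the LSD1 peak had to be covered, 33 when the LSD1 midpoint had to lie inside the HP1γ peak, and 17 with a score of at least 50 in the 0 min lists. Among the 10 named displaced sites, those in PLAG1, ZMAT3 and EHHADH-AS1 had LSD1 peaks of identical width (869 bp) and score (58.7), on 2 chromosomes; this set was chosen after its values were seen. Of genes under 50 kb, 0.54%, 0.60%, 1.86% and 4.73% had a site from the lowest to the highest quartile of H2A level at 0 min, and of genes of at least 50 kb 4.46%, 2.72%, 8.01% and 22.4%. Outside chromosome 3, the bin of 5 Mb with most sites was at chr11:125000001-130000000, with 38 among 257 LSD1 peaks, of which 5 had an LSD1 and 2 an HP1γ peak at 30 min.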
